A study of Homo sapiens with 8 samples.

Results

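Kinesin motor protein genes were followed through 8 Affymetrix arrays of a breast cancer cell line with and without the drug COH29. The members are all genes whose symbol in the platform annotation is KIF and a number, without antisense or pseudogene symbols. The annotation holds 39 of them, and 38 were measured by a probe set that names them alone, among 18417 genes tested. KIF4B had only a probe set shared with its near copy KIF4A and has no value here. A gene with several probe sets of its own is represented by the brightest one on average.

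COH29 inhibits ribonucleotide reductase, which supplies dividing cells with the building blocks of DNA. The 4 groups, with 2 arrays each, were HCC1937+BRCA1 exposed to 10 µM COH29 for 24 h, HCC1937+BRCA1 without COH29, HCC1937 exposed to 10 µM COH29 for 24 h, and HCC1937 without COH29. HCC1937 is a breast carcinoma line whose BRCA1, a gene of DNA double-strand break repair, is truncated, and HCC1937+BRCA1 is the same line given wild-type BRCA1 from outside. The labels name no vehicle and no hours for the control arrays, do not say whether the line with added BRCA1 is 1 clone, and do not give the cultures behind the 2 arrays of each group, so p-values measure the spread between arrays, which may be technical.

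Kinesins are motor proteins that use ATP to move along microtubules or to take microtubule ends apart. One set of them works in dividing cells, where they build the spindle, align the chromosomes and organise the midbody through which daughter cells separate. Another set carries vesicles, organelles and protein complexes through the cytoplasm at all stages of the cell cycle, and a further set serves centrioles and cilia. Many genes of the mitotic set are known to be transcribed mainly in the G2 and M phases. By these textbook roles the 38 measured genes fell into 12 mitotic kinesins, 15 transport kinesins, 6 kinesins of cilia and centrioles and 5 others. Some genes have several roles. KIF2A, which works at spindle poles and in neurons, was placed among the others. KIF21A, which also slows microtubule growth, and KIF3A and KIF3B, which also serve cilia, were placed among the transport kinesins.

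Values are log2 intensities, on which 1 unit is a doubling. A level can be compared between arrays for 1 gene, but not between genes. Replicate arrays were alike across all genes, with r of 0.996 to 0.997. Of the 8 measured markers of mammary epithelium, the median level was 11.41 to 11.57 on every array, and of 7 fibroblast markers it was 6.20 to 6.70. Without COH29, 1 epithelial marker was higher and 2 were lower in HCC1937+BRCA1 (limma adjusted p under 0.05), and the lowest log2 difference was -1.70. The median of 6 blood and endothelial markers was then 6.03 to 6.24 in HCC1937+BRCA1 and 6.97 to 7.27 in HCC1937. BRCA1 itself had levels of 10.25 and 10.07 in HCC1937+BRCA1 with COH29, 10.50 and 10.43 in HCC1937+BRCA1 without it, 10.40 and 10.46 in HCC1937 with COH29 and 10.45 and 10.64 in HCC1937 without it. Without COH29 the lines did not differ in BRCA1 by the test (log2 difference -0.08 ± 0.10 SE, limma adjusted p = 0.62). With COH29 the difference was -0.27 ± 0.10 and did not pass it either (adjusted p = 0.0722). BRCA1 changed with COH29 by -0.30 ± 0.10 (adjusted p = 0.0441) in HCC1937+BRCA1 and by -0.12 ± 0.10 (adjusted p = 0.444) in HCC1937. The probe set does not tell added from truncated BRCA1, so the line names below rest on the labels.

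Mitotic kinesins fell with COH29 in both lines, while transport kinesins moved in both directions around a median near 0. Of the 12 mitotic kinesins, 11 passed the test (limma adjusted p under 0.05) with a fall and 0 with a rise in HCC1937+BRCA1, and the median log2 change over all 12 was -0.94. Among the 15 transport kinesins 4 rose and 4 fell, with a median of 0.06. Over the 38 members 5 rose and 18 fell, where 33.6% of all genes tested were called, 13.6% higher and 20.1% lower, with a median of 0.04. In HCC1937, 10 of 12 mitotic kinesins fell and 0 rose, with a median of -0.76, and 4 transport kinesins rose and 2 fell, with a median of 0.12. KIF2A, which also works at spindle poles, is not in the mitotic counts. It changed by -0.39 (adjusted p = 0.0239) in HCC1937+BRCA1 and by -0.14 (adjusted p = 0.41) in HCC1937. Over the 38 members 4 rose and 14 fell in HCC1937, where 22.7% of all genes were called, 10.2% higher and 12.5% lower, with a median of 0.04. The arrays read RNA of whole cultures, so fewer cells in division and less RNA per cell cannot be told apart.

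The difference between the classes was visible on each array. Expressed as deviation from each gene's own mean over the 8 arrays, the median mitotic kinesin stood at -0.51 and -0.46 in HCC1937+BRCA1 with COH29 and at 0.37 and 0.29 in HCC1937+BRCA1 without it. It stood at -0.31 and -0.22 in HCC1937 with COH29 and at 0.42 and 0.44 in HCC1937 without it. All 4 COH29 arrays lay below 0 and all 4 control arrays above. The median transport kinesin deviated by 0.05 at most above and -0.11 at most below its mean on any array. The gap, mitotic minus transport, was -0.53 ± 0.03 with COH29 and 0.39 ± 0.01 without it in HCC1937+BRCA1 (SD, n = 2 each), a change of -0.93 in the unrounded values. In HCC1937 the gap was -0.30 ± 0.09 with COH29 and 0.48 ± 0.02 without it, a change of -0.78. The pooled SD of the gap between arrays of a group was 0.05. Because the members share arrays, this comparison was described without a test.

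**Figure D1:**
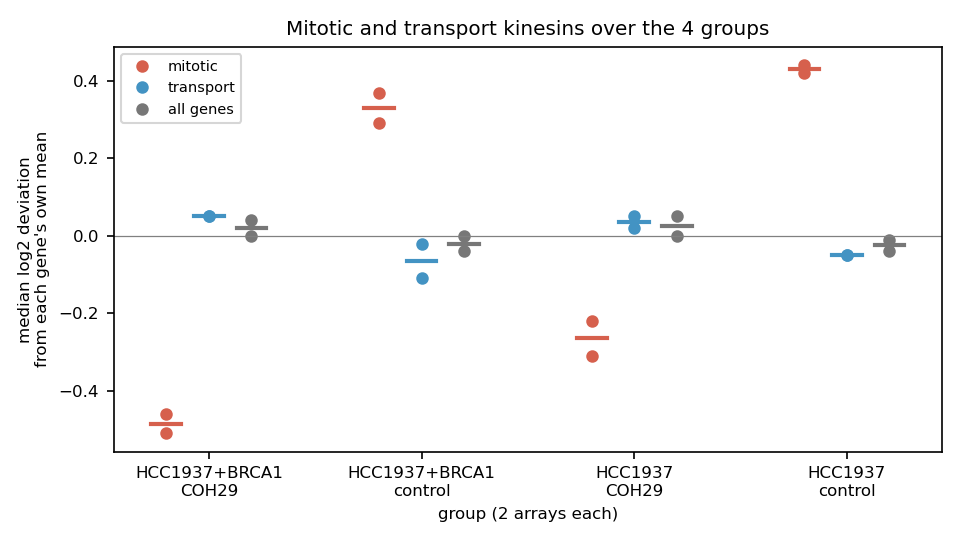
Median log2 deviation of mitotic kinesins (12 genes), transport kinesins (15 genes) and all 18417 genes from each gene's mean over the 8 arrays. Points are arrays and horizontal bars are means of the 2 arrays of a group. The mitotic points lie between -0.51 and -0.22 with COH29 and between 0.29 and 0.44 without it, while transport points stay between -0.11 and 0.05.

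Promoter sequence is shown for 8 of the mitotic kinesins that fell, for KIF24, a centriole kinesin that fell with them, for KIF2C, which fell without the element looked for, and for KIF21A and KIF3C, transport kinesins that rose in both lines. The element is the CHR (cell cycle genes homology region), known from promoters of late cell cycle genes and spelled here TTTGAA or TTCGAA, together with CCAAT, the letters of a box often found upstream of it. Each line runs 5′ to 3′ along the gene from 100 bases before the RefSeq start to 20 bases from it (GRCh38.p14), and capitals mark CHR and CCAAT letters on either strand, so that TTCAAA and ATTGG are these elements on the opposite strand.
KIF14: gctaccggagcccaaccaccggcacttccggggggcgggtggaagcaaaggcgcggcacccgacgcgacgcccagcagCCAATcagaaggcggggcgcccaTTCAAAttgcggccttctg
KIF18B: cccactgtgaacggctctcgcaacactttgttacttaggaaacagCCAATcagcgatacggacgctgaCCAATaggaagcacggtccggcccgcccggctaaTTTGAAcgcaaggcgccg
KIF15: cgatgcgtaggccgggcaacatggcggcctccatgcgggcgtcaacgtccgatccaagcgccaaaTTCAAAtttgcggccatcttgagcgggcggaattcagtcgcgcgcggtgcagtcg
KIF23: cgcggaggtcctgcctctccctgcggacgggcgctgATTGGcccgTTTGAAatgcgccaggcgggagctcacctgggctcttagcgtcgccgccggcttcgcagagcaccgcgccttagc
KIF18A: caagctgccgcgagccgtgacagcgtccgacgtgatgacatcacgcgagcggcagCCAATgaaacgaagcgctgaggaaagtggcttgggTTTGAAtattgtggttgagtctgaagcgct
KIF4A: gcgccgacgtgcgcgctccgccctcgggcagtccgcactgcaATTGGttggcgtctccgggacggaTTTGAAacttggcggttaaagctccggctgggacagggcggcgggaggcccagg
KIF22: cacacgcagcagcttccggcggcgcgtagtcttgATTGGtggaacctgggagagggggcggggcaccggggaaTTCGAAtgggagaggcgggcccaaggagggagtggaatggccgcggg
KIF11: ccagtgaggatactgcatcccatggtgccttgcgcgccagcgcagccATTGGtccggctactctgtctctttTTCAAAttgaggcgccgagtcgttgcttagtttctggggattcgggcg
KIF24: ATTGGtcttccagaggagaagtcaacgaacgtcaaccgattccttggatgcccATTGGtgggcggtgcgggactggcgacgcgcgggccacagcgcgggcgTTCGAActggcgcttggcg
KIF2C: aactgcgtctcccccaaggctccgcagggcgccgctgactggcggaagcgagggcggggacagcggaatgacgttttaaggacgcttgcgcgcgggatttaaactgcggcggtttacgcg
KIF21A: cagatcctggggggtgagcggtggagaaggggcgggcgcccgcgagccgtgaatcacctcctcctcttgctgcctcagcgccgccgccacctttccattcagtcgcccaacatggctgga
KIF3C: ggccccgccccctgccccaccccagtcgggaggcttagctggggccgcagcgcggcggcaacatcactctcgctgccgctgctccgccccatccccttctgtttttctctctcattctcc
These stretches lie in GRCh38.p14 with KIF14 at chr1:200620732-200620851 on the reverse strand, KIF18B at chr17:44947754-44947873 on the reverse strand, KIF15 at chr3:44761694-44761813 on the forward strand, KIF23 at chr15:69414249-69414368 on the forward strand, KIF18A at chr11:28108137-28108256 on the reverse strand, KIF4A at chrX:70290004-70290123 on the forward strand, KIF22 at chr16:29790651-29790770 on the forward strand, KIF11 at chr10:92593030-92593149 on the forward strand, KIF24 at chr9:34329249-34329368 on the reverse strand, KIF2C at chr1:44739737-44739856 on the forward strand, KIF21A at chr12:39443101-39443220 on the reverse strand and KIF3C at chr2:25982478-25982597 on the reverse strand.

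In the stretches above the CHR letters lay close to the start, at bases 2 to 7 of the transcript in KIF14 and KIF24, at bases 3 to 8 in KIF18B and at bases -10 to -5 in KIF18A. They lay at -28 to -23 in KIF11, -27 to -22 in KIF22, -34 to -29 in KIF4A, -35 to -30 in KIF15 and -55 to -50 in KIF23, with the start counted as 1. KIF20B had them farther inside, at bases 25 to 30 and 31 to 36. KIF20A, KIF2B and KIF2C had no such letters in their window of 250 bases before to 50 after the start. The same held for KIF13A and KIF1C, transport kinesins called lower in both lines. It also held for KIF3B, KIF16B, KIF2A and KIF7, kinesins outside the mitotic class that were called lower in HCC1937+BRCA1. The RefSeq promoter table held 41 windows for 32 of the 38 members, and several windows of a gene can overlap.

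CHR letters on either strand, within 100 bases before the start or after it, were found in 9 of 13 windows of mitotic kinesins (69.2%, 9 of 12 genes) and in 0 of 17 windows of transport kinesins (12 genes). The share over all 35116 promoter windows was 7.37%. In the whole window the letters were in 10 of 13 mitotic windows (76.9%), in 1 of 17 transport windows (5.88%) and in 16.4% of all windows. The additional mitotic window belongs to a second start of KIF22 and holds the same letters as the first. CCAAT letters within the nearer range were in 69.2% of mitotic windows, 11.8% of transport windows and 21.3% of all windows. GGCGG letters, searched for the CDE (cell cycle dependent element), were in 100% of mitotic, 82.4% of transport and 50.7% of all windows. The motifs were searched separately, matches of different motifs may overlap, and TTCGAA reads the same on both strands and was counted once. A match is a description of letters and not a binding site.

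**Figure D2:**
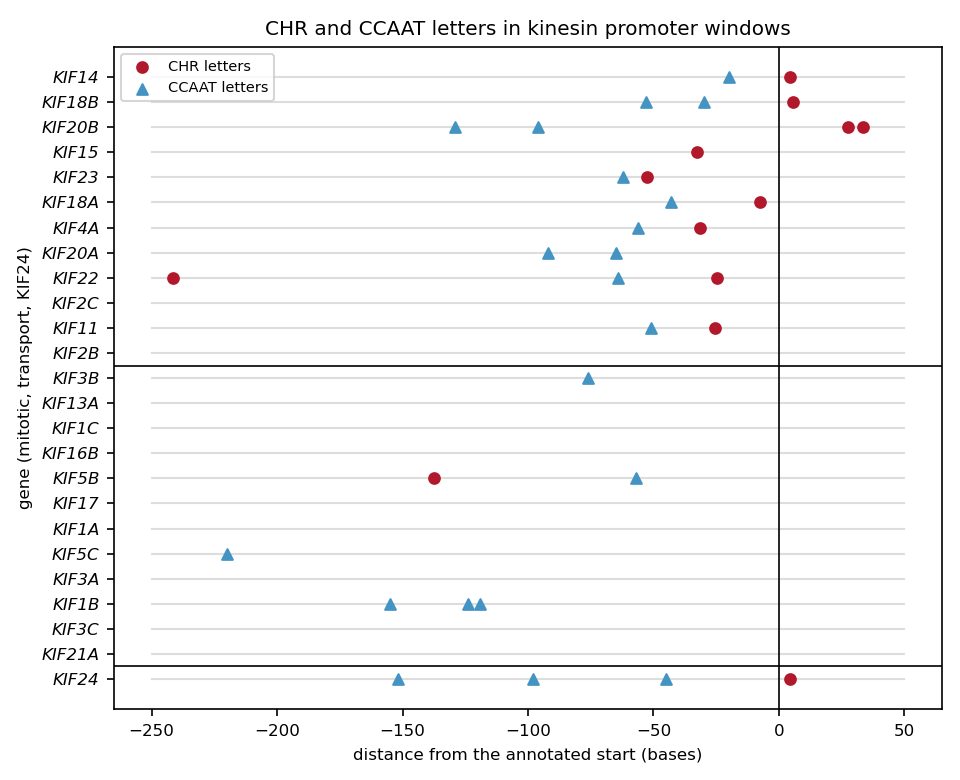
Positions of CHR letters (circles) and CCAAT letters (triangles), in bases from the annotated start (vertical line), in the RefSeq promoter windows of mitotic kinesins (top), transport kinesins (middle) and KIF24 (bottom). All windows of a gene are drawn on 1 line, and the 2 circles of KIF22 are the same letters counted from its 2 starts. Each mitotic gene with circles has one within 100 bases of a start, the circle of KIF22 counted from its second start lies farther out, and the only transport circle, in KIF5B, lies more than 100 bases before the start.

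The motors of the midbody and the central spindle fell in both lines, and among all kinesins KIF14 fell most in each. KIF14, which binds PRC1 and citron kinase at the midbody, had levels of 8.74 and 8.55 with COH29 against 10.14 and 10.01 without it in HCC1937+BRCA1, and 8.27 and 8.58 with COH29 against 9.98 and 9.95 without it in HCC1937. The COH29 arrays lay far below the control arrays of both lines. The log2 change was -1.43 ± 0.12 (SE, limma adjusted p = 4.14e-05), a 2.69-fold lower level, in HCC1937+BRCA1 and -1.54 ± 0.12 (adjusted p = 7.36e-05), 2.91-fold lower, in HCC1937.

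KIF20B, which works at the midbody in the last step of cytokinesis, had 8.19 and 7.97 with COH29 against 9.41 and 9.06 without it in HCC1937+BRCA1, and 8.93 and 9.03 with COH29 against 10.06 and 10.12 without it in HCC1937. It fell by 1.16 ± 0.13 (adjusted p = 0.000177) and by 1.11 ± 0.13 (adjusted p = 0.000434), and the groups of neither line overlapped. KIF23 pairs with RACGAP1 in centralspindlin, the complex that bundles the midzone and marks the site of the cleavage furrow. Its levels were 10.61 and 10.51 with COH29 against 11.53 and 11.49 without it in HCC1937+BRCA1, and 10.40 and 10.47 with COH29 against 11.29 and 11.28 without it in HCC1937. The changes of -0.95 ± 0.08 (adjusted p = 4.85e-05) and -0.85 ± 0.08 (adjusted p = 0.000184) were many times the spread between its arrays.

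KIF20A carries the chromosomal passenger complex to the midzone. Its levels were 10.79 and 10.80 with COH29 against 11.25 and 11.15 without it in HCC1937+BRCA1, and 10.81 and 10.88 with COH29 against 11.72 and 11.74 without it in HCC1937. The 4 COH29 arrays lay close together across both lines, while the control arrays of the lines stood apart. The fall was -0.40 ± 0.08 (adjusted p = 0.00485) in HCC1937+BRCA1 and -0.89 ± 0.08 (adjusted p = 0.000151) in HCC1937.

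Motors that set microtubule length and move chromosomes fell as well. KIF18B, which limits the growth of astral microtubules, had 8.62 and 8.70 with COH29 against 10.04 on both control arrays in HCC1937+BRCA1, and 8.33 and 8.53 with COH29 against 9.60 and 9.59 without it in HCC1937. Its log2 changes were -1.38 ± 0.09 (adjusted p = 1.46e-05) and -1.16 ± 0.09 (adjusted p = 8.19e-05), with no overlap, and a second probe set of the gene gave -1.08 in both lines. KIF18A, which damps the movement of aligned chromosomes at the metaphase plate, had 8.95 and 8.73 with COH29 against 9.92 and 9.72 without it in HCC1937+BRCA1, and 9.14 and 9.25 with COH29 against 9.86 on both control arrays in HCC1937. The log2 changes of KIF18A were -0.98 ± 0.11 (adjusted p = 0.000163) and -0.66 ± 0.11 (adjusted p = 0.00219).

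The chromokinesins KIF4A and KIF22 ride on chromosome arms. KIF4A, which also shortens the overlap of antiparallel microtubules with PRC1, had 8.94 and 9.17 with COH29 against 9.97 and 9.98 without it in HCC1937+BRCA1, and 9.19 and 9.31 with COH29 against 9.93 and 9.97 without it in HCC1937. It fell by 0.92 ± 0.10 (adjusted p = 0.000144) and by 0.71 ± 0.10 (adjusted p = 0.00105), and transcripts of its near copy KIF4B could be read by the same probes. KIF22, which pushes chromosome arms away from the poles, had 10.21 and 10.23 with COH29 against 10.89 and 10.95 without it in HCC1937+BRCA1, and 10.45 and 10.59 with COH29 against 10.95 and 11.12 without it in HCC1937. It fell by 0.70 ± 0.09 (adjusted p = 0.000526) and by 0.51 ± 0.09 (adjusted p = 0.00459).

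KIF2C takes microtubules apart at kinetochores and so frees wrong attachments. It had 10.01 and 9.79 with COH29 against 10.39 and 10.35 without it in HCC1937+BRCA1, and 9.12 and 9.39 with COH29 against 9.79 and 9.87 without it in HCC1937. The falls of 0.47 ± 0.11 (adjusted p = 0.0114) and 0.57 ± 0.11 (adjusted p = 0.00686) were larger than the spread in each group. The call ended without the second COH29 array (-0.36, adjusted p = 0.0833) or the first control array (-0.45, adjusted p = 0.0607) of HCC1937+BRCA1, and in HCC1937 without the second control array (-0.54, adjusted p = 0.0537).

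KIF2B, a related kinetochore depolymerase, had low levels on every array, between 6.09 and 6.57. Its changes of 0.06 ± 0.13 (adjusted p = 0.72) in HCC1937+BRCA1 and 0.11 ± 0.13 (adjusted p = 0.584) in HCC1937 made it the only mitotic kinesin not called in either line.

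KIF11 and KIF15 are the motors that push the spindle poles apart and keep them apart. KIF15 had 7.78 and 7.60 with COH29 against 8.94 and 8.82 without it in HCC1937+BRCA1, and 8.76 and 8.84 with COH29 against 9.63 and 9.59 without it in HCC1937. It fell by 1.19 ± 0.09 (adjusted p = 3.32e-05) and by 0.81 ± 0.09 (adjusted p = 0.000467). KIF11 had 9.42 and 9.07 with COH29 against 10.04 and 9.71 without it in HCC1937+BRCA1, and 10.28 on both COH29 arrays against 10.63 on both control arrays in HCC1937. Its change was -0.63 ± 0.14 (adjusted p = 0.00687) in HCC1937+BRCA1 and -0.35 ± 0.14 (adjusted p = 0.105) in HCC1937. The HCC1937 arrays of KIF11 did not overlap, but the error shared over all 8 arrays left the change above the threshold, and it was called in a fit of the 4 HCC1937 arrays alone (adjusted p = 0.0302) and with a trended, robust variance (adjusted p = 0.0371). The call in HCC1937+BRCA1 ended without its second COH29 array (-0.46, adjusted p = 0.0511) or its first control array (-0.47, adjusted p = 0.0537).

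**Figure D3:**
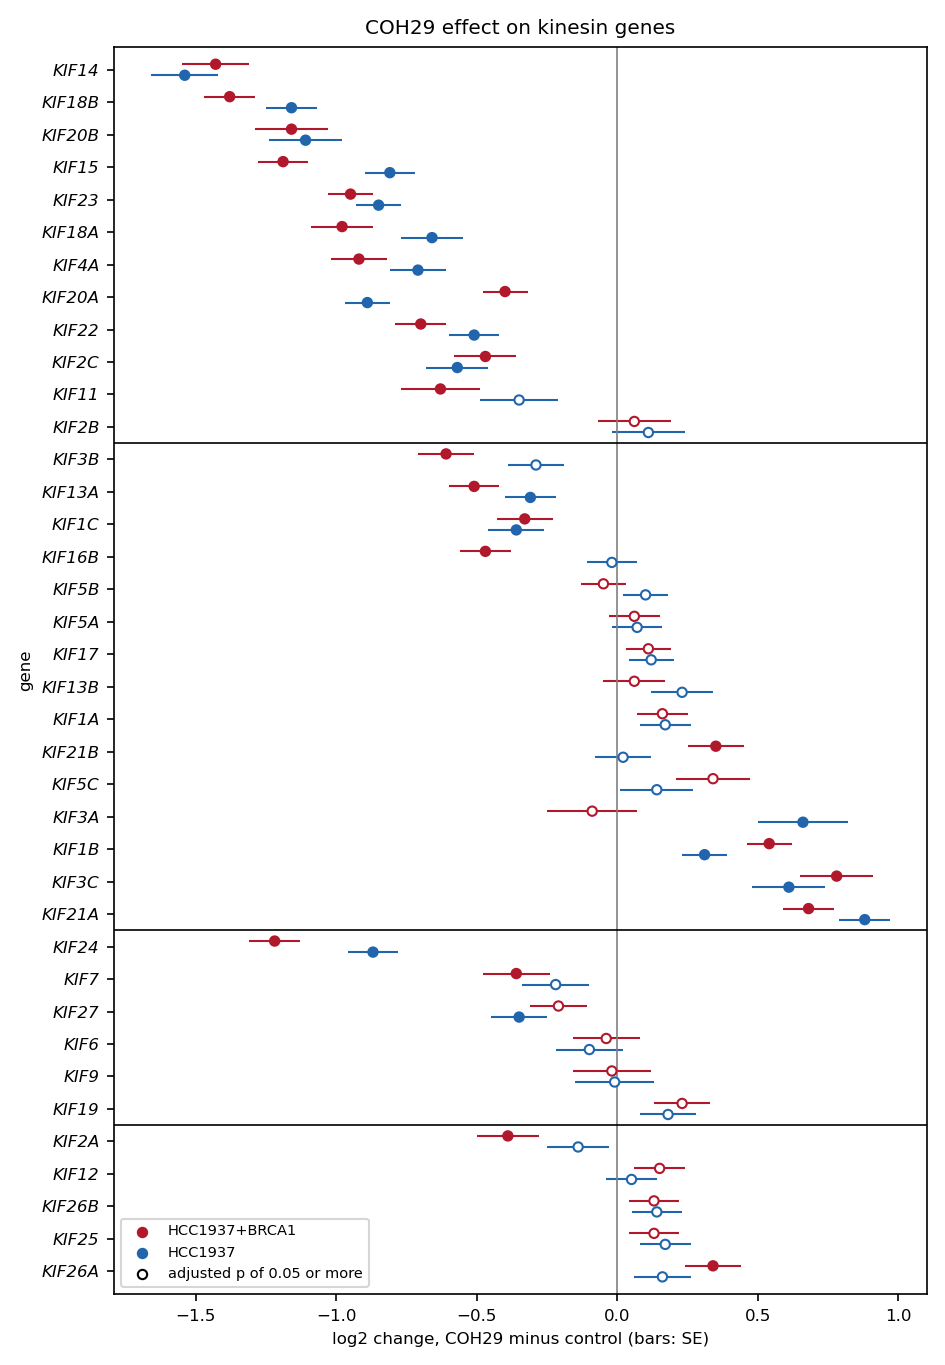
Log2 change with COH29 (COH29 minus control) of the 38 kinesin genes in HCC1937+BRCA1 (red) and HCC1937 (blue), by role: mitotic, transport, cilium and centriole, and other, from top to bottom. Bars are limma standard errors, and open circles have an adjusted p of 0.05 or more. In the mitotic block all circles but those of KIF2B lie left of 0, and the transport block spreads on both sides.

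Genes that work with the mitotic kinesins were counted from a list of 22 spindle and midbody partners. Those that fell numbered 21 in HCC1937+BRCA1 (median log2 change of all 22, -0.94) and 20 in HCC1937 (median -0.78), and 0 rose in either line. Among all genes tested 20.1% in HCC1937+BRCA1 and 12.5% in HCC1937 were called lower, against 95.5% and 90.9% of these partners. PLK1, the kinase that recruits many midzone proteins, and AURKA, the kinase of spindle poles, had the largest mean changes among them (PLK1 -1.93 and -1.75, AURKA -1.66 and -1.71). The falls of PLK1 and AURKA were known when the list was drawn up, so it is not independent evidence of direction. Of 5 kinesins with other symbols 2 rose and 2 fell in HCC1937+BRCA1, and 0 rose and 2 fell in HCC1937. These calls were 80% and 40% of that list, where 33.6% and 22.7% of all genes were called. In it CENPE, which carries chromosomes to the metaphase plate, changed by -0.94 ± 0.12 and -0.99 ± 0.12. KIFC1, which holds spindle poles together, changed by -0.79 ± 0.09 and -1.01 ± 0.09 (limma adjusted p of both genes, 0.00016 to 0.000666). STARD9 and KIFC2 of the same list rose by 0.61 and 0.40 in HCC1937+BRCA1 and had 0.18 and 0.12 in HCC1937, and neither passed the test of the difference between the lines (adjusted p = 0.394 and 0.471). Of these rises 1 was left without the second COH29 array or without either control array of HCC1937+BRCA1.

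Among 11 measured regulators of late cell cycle genes 3 rose and 5 fell in HCC1937+BRCA1, and 2 rose and 5 fell in HCC1937, with a median log2 change of -0.16 in each line. The calls were 72.7% and 63.6% of the list, where 33.6% and 22.7% of all genes were called. CDKN1A, the inhibitor of cyclin-dependent kinases, changed by 1.62 and 1.41, and FOXM1, an activator of G2 and M phase genes, by -0.85 ± 0.09 (adjusted p = 0.000144) and -0.65 ± 0.09 (adjusted p = 0.00103). In HCC1937 the count that fell was 2 or 3 without any 1 of its 4 arrays, and the count that rose was 1 without either COH29 array or the second control array.

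Transport kinesins that rose in both lines were KIF3C, KIF21A and KIF1B. KIF3C, a kinesin-2 subunit that pairs with KIF3A, had 8.39 and 8.58 with COH29 against 7.79 and 7.63 without it in HCC1937+BRCA1, and 7.60 and 7.96 with COH29 against 7.15 and 7.21 without it in HCC1937. It rose by 0.78 ± 0.13 (adjusted p = 0.00168) and by 0.61 ± 0.13 (adjusted p = 0.00929). The groups of neither line overlapped, and the call in HCC1937 ended without its first control array (0.58, adjusted p = 0.0617).

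KIF21A, which slows microtubule growth at the cell cortex, had 10.03 and 9.81 with COH29 against 9.28 and 9.21 without it in HCC1937+BRCA1, and 9.71 and 9.78 with COH29 against 8.87 and 8.85 without it in HCC1937. It rose by 0.68 ± 0.09 (adjusted p = 0.000658) and by 0.88 ± 0.09 (adjusted p = 0.000313), the largest rise of a kinesin in HCC1937. KIF1B, a carrier of mitochondria and synaptic vesicle precursors, had 9.91 and 9.97 with COH29 against 9.37 and 9.42 without it in HCC1937+BRCA1, and 9.35 and 9.41 with COH29 against 9.09 and 9.05 without it in HCC1937. It rose by 0.54 ± 0.08 (adjusted p = 0.000866) and by 0.31 ± 0.08 (adjusted p = 0.0217). In HCC1937 the KIF1B call ended without any 1 of its 4 arrays, at adjusted p of 0.0548 without the first and 0.0789 without the second COH29 array, and 0.0861 without the first and 0.123 without the second control array (0.34, 0.28, 0.33 and 0.30).

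The kinesin-2 partners KIF3A and KIF3B, whose motor drives transport in cilia, were each called in 1 line, KIF3A higher in HCC1937, as KIF3C was, and KIF3B lower in HCC1937+BRCA1. KIF3A had 8.25 and 7.71 with COH29 against 8.0 and 8.14 without it in HCC1937+BRCA1, where the groups overlapped, and 8.95 and 9.08 with COH29 against 8.41 and 8.30 without it in HCC1937, where they did not. Its change was -0.09 ± 0.16 (adjusted p = 0.683) in HCC1937+BRCA1 and 0.66 ± 0.16 (adjusted p = 0.0165) in HCC1937. The call in HCC1937 ended without its first or second COH29 array (0.72 and 0.60, adjusted p = 0.0513 and 0.0744) and without its first or second control array (0.71 and 0.60, adjusted p = 0.0571 and 0.1). KIF3B had 8.18 and 8.01 with COH29 against 8.79 and 8.63 without it in HCC1937+BRCA1, a change of -0.61 ± 0.10 (adjusted p = 0.00137). In HCC1937 it had 8.21 and 8.31 with COH29 against 8.51 and 8.58 without it, a change of -0.29 ± 0.10 that did not pass the test (adjusted p = 0.0683).

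KIF13A, a carrier of recycling endosomes, and KIF1C, a carrier of Golgi and integrin vesicles, fell in both lines. KIF13A had 8.61 and 8.48 with COH29 against 9.10 and 9.01 without it in HCC1937+BRCA1 (-0.51 ± 0.09, adjusted p = 0.00218), and 8.69 and 8.79 with COH29 against 9.02 and 9.09 without it in HCC1937 (-0.31 ± 0.09, adjusted p = 0.0334). KIF1C had 10.41 and 10.42 with COH29 against 10.83 and 10.66 without it in HCC1937+BRCA1 (-0.33 ± 0.10, adjusted p = 0.0279), and 9.89 and 10.05 with COH29 against 10.27 and 10.38 without it in HCC1937 (-0.36 ± 0.10, adjusted p = 0.0294). The arrays did not overlap, but these 2 genes sat near the threshold. In HCC1937 both calls ended without the first COH29 array or either control array (KIF13A -0.26, -0.35 and -0.28, adjusted p = 0.155, 0.0978 and 0.175, KIF1C -0.27, -0.41 and -0.30, adjusted p = 0.16, 0.0714 and 0.175). In HCC1937+BRCA1 the KIF1C call ended without the first or second COH29 array or the first control array (-0.33, -0.34 and -0.25, adjusted p = 0.0921, 0.0928 and 0.177).

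KIF16B, a motor of early endosomes, had 7.42 and 7.29 with COH29 against 7.88 and 7.78 without it in HCC1937+BRCA1, and 7.20 and 7.19 with COH29 against 7.13 and 7.30 without it in HCC1937. It fell by 0.47 ± 0.09 (adjusted p = 0.00427) in HCC1937+BRCA1 and changed by -0.02 ± 0.09 (adjusted p = 0.913) in HCC1937. KIF21B, a motor of neurons and lymphocytes, had 7.54 and 7.53 with COH29 against 7.08 and 7.30 without it in HCC1937+BRCA1, a change of 0.35 ± 0.10 (adjusted p = 0.0231). Its call ended without the first or second COH29 array or the first control array (0.35, 0.36 and 0.24, adjusted p = 0.083, 0.0789 and 0.165), and in HCC1937 it changed by 0.02 ± 0.10.

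The conventional kinesin heavy chain KIF5B, present in most cell types, had 12.81 and 12.84 with COH29 against 12.92 and 12.83 without it in HCC1937+BRCA1, and 13.10 and 13.06 with COH29 against 13.01 and 12.95 without it in HCC1937. Its changes of -0.05 ± 0.08 (adjusted p = 0.668) and 0.10 ± 0.08 (adjusted p = 0.404) did not pass the test. KIF13B, a transporter of membrane cargo, changed by 0.06 and 0.23 and did not pass it either. The other transport kinesins, KIF1A, KIF5A, KIF5C and KIF17, which are known mainly from neurons, were called in none of the 5 comparisons made here. KIF5C was the nearest to a call, with 0.34 ± 0.13 (adjusted p = 0.0652) in HCC1937+BRCA1. It was called there in 5 of the 16 alternatives that tested it, and in 2 of 16 between the lines with COH29.

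Of 16 measured kinesin light chains and cargo adaptors 3 rose and 3 fell in HCC1937+BRCA1 and 2 rose and 1 fell in HCC1937 (median log2 changes 0.16 and 0.01). These calls were 37.5% and 18.8% of the list, near the 33.6% and 22.7% called among all genes. SYBU, an adaptor between KIF5 and syntaxin vesicles, changed by 0.59 ± 0.10 (adjusted p = 0.00154) and 0.51 ± 0.10 (adjusted p = 0.00526), and KIFAP3, the cargo-binding subunit of kinesin-2, by -0.45 ± 0.09 (adjusted p = 0.00363) and -0.37 ± 0.09 (adjusted p = 0.0137). The rises in HCC1937+BRCA1 were 1 without its first control array, and 6 with arrays shifted to the same median or by cyclic loess. In HCC1937 the rises were 1 without either COH29 array and 0 without the second control array, and the falls were 0 without the first COH29 array or either control array. Of 21 genes of cytoplasmic dynein, the motor that moves the other way, and of dynactin, 4 rose and 4 fell in HCC1937+BRCA1, and 3 rose and 1 fell in HCC1937 (median log2 changes -0.09 and -0.01). These calls were 38.1% and 19.0% of the list, near the 33.6% and 22.7% of all genes. NDEL1, a dynein regulator, changed by 1.20 ± 0.08 (adjusted p = 1.48e-05) and 0.75 ± 0.08 (adjusted p = 0.000343), and DCTN6, a dynactin subunit, by -0.87 ± 0.11 (adjusted p = 0.000365) and -0.91 ± 0.11 (adjusted p = 0.000544). The dynein falls in HCC1937+BRCA1 were 2 without its first COH29 array or either control array and under both scalings, and those in HCC1937 were 2 without its second COH29 array.

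In the cilium and centriole class KIF24 stood apart. KIF24, which trims centriole microtubules and holds back cilium formation, had 7.13 on both COH29 arrays against 8.30 and 8.40 without COH29 in HCC1937+BRCA1, and 7.06 and 7.24 with COH29 against 8.08 and 7.96 without it in HCC1937. It fell by 1.22 ± 0.09 (adjusted p = 2.83e-05) and by 0.87 ± 0.09 (adjusted p = 0.000326), with no overlap in either line. KIF7, the kinesin of Hedgehog signalling at the cilium tip, had 7.91 and 7.94 with COH29 against 8.47 and 8.10 without it in HCC1937+BRCA1, a change of -0.36 ± 0.12 (adjusted p = 0.0424). This call ended in 12 of 17 alternatives and rested on the first control array, without which the change was -0.17 (adjusted p = 0.281). It ended without any other single array except the second control array, at adjusted p of 0.0536 to 0.132. In HCC1937 KIF7 changed by -0.22 ± 0.12 (adjusted p = 0.224).

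KIF27, a relative of KIF7, had 8.10 and 8.16 with COH29 against 8.42 and 8.54 without it in HCC1937, a change of -0.35 ± 0.10 (adjusted p = 0.0401), and changed by -0.21 ± 0.10 (adjusted p = 0.144) in HCC1937+BRCA1. The KIF27 call ended without any 1 of the 4 HCC1937 arrays or either HCC1937+BRCA1 array with COH29, with changes of -0.41 to -0.29 and adjusted p of 0.0543 to 0.214. KIF6, KIF9 and KIF19, which are known from motile cilia, were called in no comparison.

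Of the remaining kinesins KIF2A, a depolymerase of spindle poles and of neurons, had 10.11 and 9.82 with COH29 against 10.42 and 10.30 without it in HCC1937+BRCA1, a change of -0.39 ± 0.11 (adjusted p = 0.0239), and changed by -0.14 ± 0.11 (adjusted p = 0.41) in HCC1937. KIF26A, which lacks the usual motor activity, had 7.31 and 7.41 with COH29 against 6.96 and 7.07 without it in HCC1937+BRCA1, a change of 0.34 ± 0.10 (adjusted p = 0.0226), and changed by 0.16 ± 0.10 (adjusted p = 0.279) in HCC1937. Both calls ended without the second COH29 array (KIF2A -0.25, adjusted p = 0.154, KIF26A 0.29, adjusted p = 0.118) or the first control array of HCC1937+BRCA1 (KIF2A -0.34, adjusted p = 0.13, KIF26A 0.28, adjusted p = 0.133). In all 11 members were called in none of the 5 comparisons, namely KIF1A, KIF2B, KIF5A, KIF5C, KIF6, KIF9, KIF12, KIF17, KIF19, KIF25 and KIF26B. Their levels ran from 5.25 to 7.37 on the arrays and their log2 differences from -0.15 to 0.34.

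**Figure D4:**
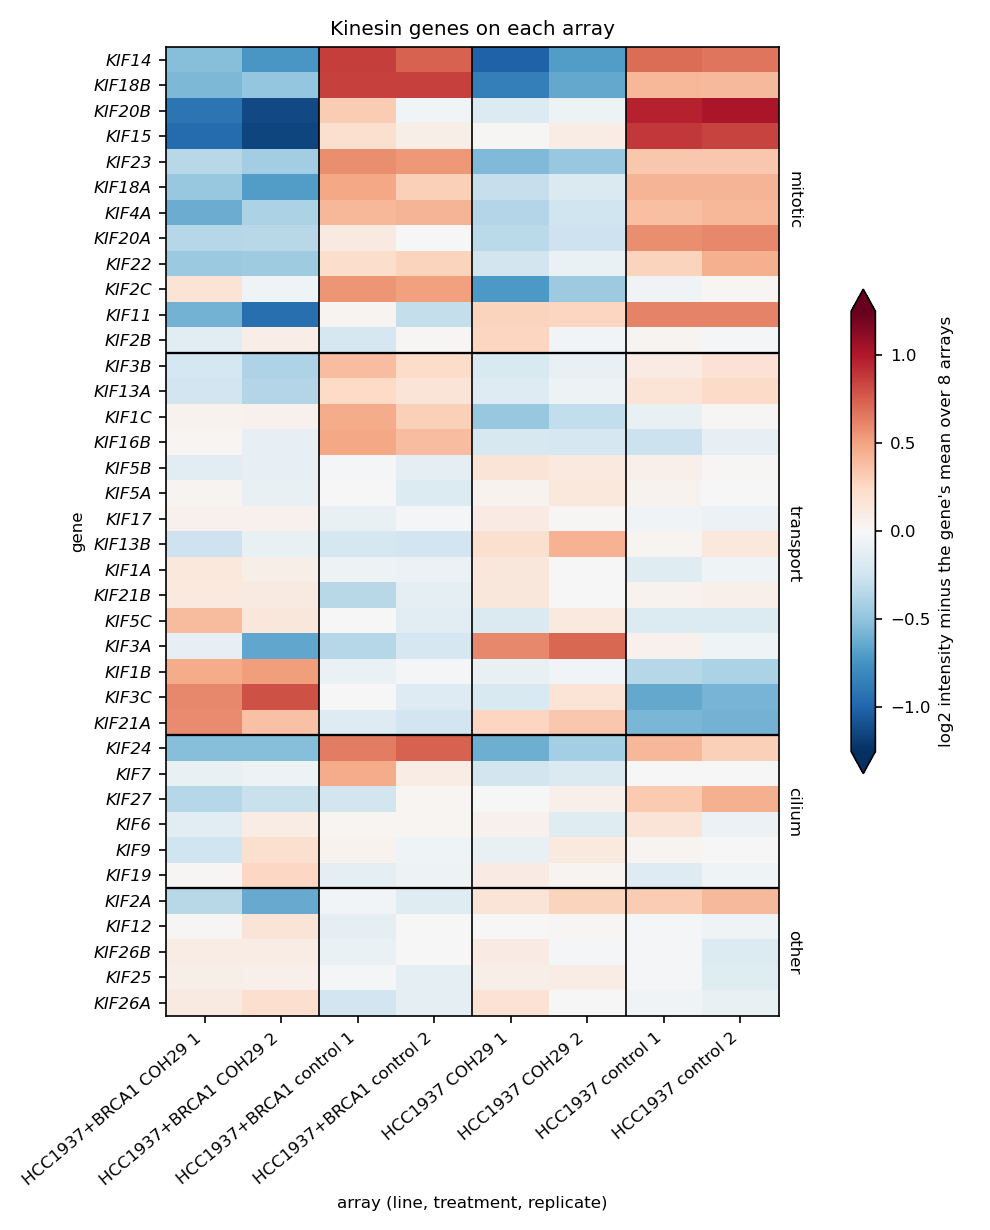
Level of each of the 38 kinesin genes on each of the 8 arrays, as log2 intensity minus the gene's mean over the arrays (red above, blue below). In the mitotic rows, KIF2B apart, the arrays with COH29 are bluer than the control arrays of the same line. The rows of KIF12 and KIF17, which were never called, are pale throughout. That of KIF5C, also never called, reaches 0.4 on the first HCC1937+BRCA1 array with COH29.

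Whether COH29 acted differently on kinesins in the 2 lines was tested as the effect in HCC1937+BRCA1 minus the effect in HCC1937. The limma test called 0 of 38 members, where 0.956% of all genes were called, and 7 members had an unadjusted p under 0.05. The smallest adjusted p was that of KIF20A, whose difference was 0.48 ± 0.12 (adjusted p = 0.107). KIF20A was called when genes of low mean level were left out (adjusted p = 0.0484) and with a trended, robust variance (adjusted p = 0.0063). The other 6 members were KIF3A (-0.75 ± 0.22, adjusted p = 0.188), KIF16B (-0.46 ± 0.13, adjusted p = 0.176), KIF15 (-0.37 ± 0.13, adjusted p = 0.279), KIF24 (-0.35 ± 0.13, adjusted p = 0.315), KIF21B (0.34 ± 0.14, adjusted p = 0.351) and KIF3B (-0.33 ± 0.14, adjusted p = 0.362). A missed threshold with 4 residual degrees of freedom does not show that the lines responded alike. The calls of KIF16B in 1 line and KIF3A in the other are therefore not shown to differ between lines.

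Some kinesins also differed between the lines without the drug, at a rate not far from that of all genes. Without COH29, 8 members were higher and 7 lower in HCC1937+BRCA1 than in HCC1937. These calls were 39.5% of the 38 members, where 31.2% of all genes were called, 16.4% higher and 14.8% lower. By class these were 2 higher and 4 lower of 12 mitotic kinesins, 5 higher and 1 lower of 15 transport kinesins, 1 of each in the cilium class and 1 lower among the others. With COH29 4 members were higher and 10 lower. That is 36.8% of the members, where 31.6% of all genes were called, 14.2% higher and 17.4% lower. The line comparisons use the same arrays as the drug comparisons and are not separate evidence.

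The spindle-pole motors and KIF20B were lower in HCC1937+BRCA1. The log2 difference, HCC1937+BRCA1 minus HCC1937, was -1.04 ± 0.14 with COH29 (adjusted p = 0.000439) and -0.76 ± 0.14 without it (adjusted p = 0.00268) for KIF11. For KIF15 it was -1.11 ± 0.09 with COH29 (adjusted p = 3.49e-05) and -0.73 ± 0.09 without it (adjusted p = 0.000385), and for KIF20B -0.90 ± 0.13 (adjusted p = 0.000634) and -0.85 ± 0.13 (adjusted p = 0.000881). From the levels given above, every HCC1937+BRCA1 array of KIF11 lay below every HCC1937 array, treated or not. KIF2C went the other way, higher by 0.64 ± 0.11 with COH29 (adjusted p = 0.00232) and by 0.54 ± 0.11 without it (adjusted p = 0.00582).

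Other mitotic kinesins passed the test between the lines in 1 condition, and for none of them did the difference between conditions, which is the contrast between drug effects given above, pass it. KIF20A was lower without COH29 (-0.53 ± 0.08, adjusted p = 0.00106) and had a difference of -0.05 ± 0.08 with it, and KIF18B was higher without COH29 (0.45 ± 0.09, adjusted p = 0.00553) and had 0.23 ± 0.09 with it (adjusted p = 0.0995). KIF18B with COH29 was called without the second HCC1937 COH29 array (0.33, adjusted p = 0.0419). KIF18A and KIF22 were lower with COH29 (-0.35 ± 0.11, adjusted p = 0.0313, and -0.30 ± 0.09, adjusted p = 0.0361), and had -0.04 and -0.12 without it. Without the second HCC1937+BRCA1 COH29 array these 2 calls ended (-0.24, adjusted p = 0.189, and -0.31, adjusted p = 0.101), as they did without the second HCC1937 COH29 array (-0.30, adjusted p = 0.145, and -0.23, adjusted p = 0.178) and under both other scalings of the arrays. Each also ended without any 1 of 3 further arrays, at adjusted p of 0.0504 to 0.127. KIF14, KIF23 and KIF4A had differences of -0.19 to 0.23 that did not pass the test in either condition.

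Transport kinesins higher in HCC1937+BRCA1 under both conditions were KIF3C (0.70 ± 0.13 with COH29, 0.53 ± 0.13 without), KIF1B (0.56 ± 0.08 and 0.33 ± 0.08) and KIF1C (0.44 ± 0.10 and 0.42 ± 0.10), all at adjusted p of 0.0128 or less. KIF13B was lower under both (-0.49 ± 0.11, adjusted p = 0.00635, and -0.32 ± 0.11, adjusted p = 0.0463). KIF16B was higher without COH29 (0.62 ± 0.09, adjusted p = 0.000964), as was KIF21A (0.38 ± 0.09, adjusted p = 0.0131), and these had 0.16 and 0.18 with it. KIF3A was lower with COH29 (-1.04 ± 0.16, adjusted p = 0.000986) and had -0.29 ± 0.16 without it, and KIF5B was lower with COH29 (-0.26 ± 0.08, adjusted p = 0.0373), a call that ended without any 1 of 6 arrays at adjusted p of 0.062 to 0.131. KIF2A and KIF27 were lower under both conditions (KIF2A -0.71 ± 0.11 and -0.46 ± 0.11, KIF27 -0.35 ± 0.10 and -0.48 ± 0.10, with COH29 and without it). The KIF27 call with COH29 (adjusted p = 0.0304) ended without any 1 of the 4 COH29 arrays, at adjusted p of 0.0695 to 0.136. KIF24 was higher without COH29 (0.33 ± 0.09, adjusted p = 0.0261).

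Several of these line calls without COH29 ended when 1 control array was left out. Without the first HCC1937 control array the members that were higher numbered 3 in place of 8, without the first HCC1937+BRCA1 control array 4, and without the second HCC1937 control array 5, when those that were lower numbered 4 in place of 7. The calls that ended belonged to KIF1B, KIF1C, KIF3C, KIF21A, KIF24, KIF13B, KIF27 and KIF2A, with adjusted p of 0.0517 to 0.222. With COH29 the members that were lower numbered 6 in place of 10 without the second COH29 array of either line.

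**Figure D5:**
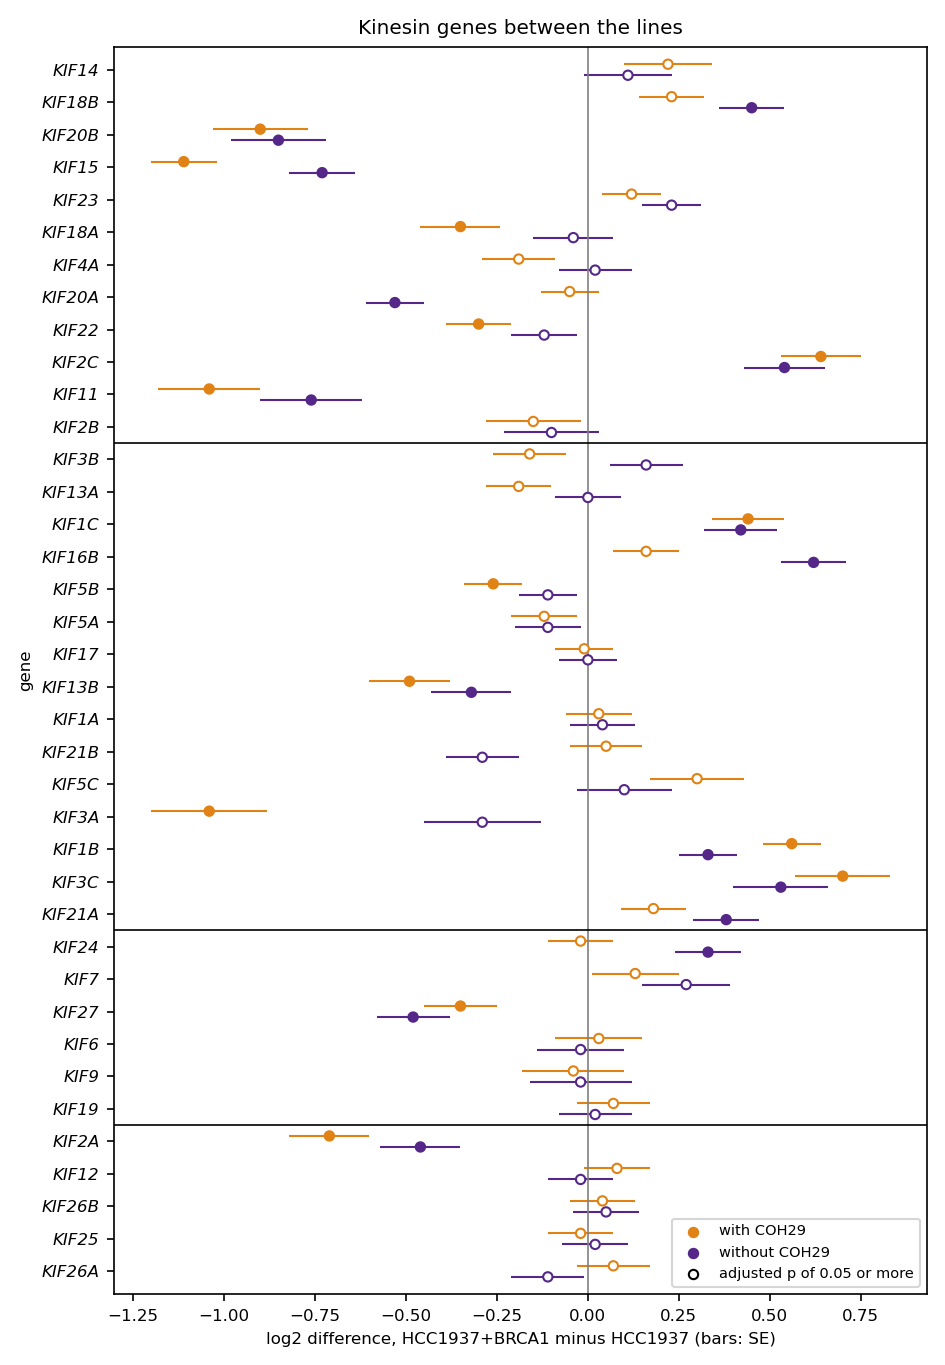
Log2 difference between the lines (HCC1937+BRCA1 minus HCC1937) of the 38 kinesin genes with COH29 (orange) and without it (purple), in the same order and role blocks as the plot of drug effects. Bars are limma standard errors, and open circles have an adjusted p of 0.05 or more. KIF11, KIF15 and KIF20B lie far left in both conditions, and KIF2C, KIF1B, KIF1C and KIF3C lie right.

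Markers of cell types were counted with COH29 as well, where 33.6% of all genes were called in HCC1937+BRCA1 and 22.7% in HCC1937. Of 6 measured markers of blood and endothelium 0 rose in either line, 2 fell in HCC1937+BRCA1 and 3 fell in HCC1937. These calls were 33.3% and 50% of the list. Their summed linear intensity was 425 to 440 with COH29 against 625 to 683 without it in HCC1937+BRCA1, and 1130 to 1230 with COH29 against 2530 to 2920 without it in HCC1937. CD14, the endotoxin co-receptor of monocytes, was the brightest of them, and without CD14 the sums were 326 to 327 with COH29 against 513 to 566 without the drug in HCC1937+BRCA1, and 463 to 466 with COH29 against 1110 to 1210 without it in HCC1937. CD14 changed by -0.12 ± 0.12 (adjusted p = 0.448) in HCC1937+BRCA1 and by -1.13 ± 0.12 (adjusted p = 0.000295) in HCC1937. PECAM1, an adhesion protein of endothelium and blood cells, changed by -1.48 and -1.95, and CDH5, the cadherin of endothelium, by -0.50 and -1.28. PTPRC, the common antigen of white blood cells, stayed at 3.73 to 4.31 on all arrays. Of 8 epithelial markers 2 rose and 0 fell in HCC1937+BRCA1, and 1 rose and 1 fell in HCC1937. These calls were 25% of the list in each line. CDH1 and KRT14 each changed by 0.35 and 0.26, but only 1 epithelial marker was called higher in HCC1937. The lowest change of the list there was -0.27. Of 7 fibroblast markers 1 rose in HCC1937+BRCA1 (DCN, 0.25) and 0 were called in HCC1937, which is 14.3% and 0% of the list. The part of these markers in the kinesin results was not tested.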

How the data were processed

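Gene expression was measured on 8 arrays in 4 groups of 2. Each array has 33297 probe sets with log2 intensities, as deposited, and the submitters' processing notes name RMA and Partek with no versions. RMA corrects background, equalises the arrays' distributions and summarises probes on the log2 scale, which understates changes of dim probe sets. Names came from the platform annotation (19460 probe sets with 1 gene, 1754 with several, 12083 with none), and 19429 matched RefSeq (GRCh38.p14). Keeping the brightest probe set per gene by its mean left 18417 genes, with no filter on low levels.

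All 8 arrays entered one limma fit with a mean per group (limma 3.58.1, R 4.3.3, moderated by eBayes, 4 residual degrees of freedom). A call is an adjusted p under 0.05 by the Benjamini-Hochberg method over all 18417 genes. The median standard error of a change was 0.103, and precision is limited by having 2 arrays per group. The fit was tested on simulated data. Promoter windows came from RefSeq, 250 bases before to 50 after a start, and were searched with Python 3.11.15. Figures used matplotlib 3.10.9.

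The members, roles and gene lists were chosen with earlier results of these data known. All mitotic kinesins, all other kinesins called in at least 1 of 5 comparisons and the 2 called members of each list with the largest mean drug effect were named, and CD14 was added after its values were seen. The alternatives were 8 other settings, KIF2A counted as mitotic, leaving out each array, and 1 block with crossed replicate numbers that was chosen after seeing the data. Deviations of same-numbered arrays correlated at -0.204 to 0.26 over the pairs of groups, so the numbers were not taken to pair the arrays.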

Additional observations from a re-analysis of the deposited data

Results flagged for a closer look

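Among the genes of the lists, CD14 and CDH5, both of the blood and endothelial markers, had drug effects that differed between the lines by the test of the difference itself. They were 33.3% of the 6 measured markers of that list, where 0.956% of all genes were called. Levels of CD14 were 6.62 and 6.81 with COH29 against 6.81 and 6.87 without it in HCC1937+BRCA1, and 9.38 and 9.57 with COH29 against 10.47 and 10.74 without it in HCC1937. The effect in HCC1937+BRCA1 minus that in HCC1937 was 1.00 ± 0.17 (SE, limma adjusted p = 0.0357). The CD14 levels in HCC1937+BRCA1 were low, within the 5.25 to 7.37 of the kinesins never called. Whether this low level hid a fall of CD14 in that line was not tested. Levels of CDH5 were 6.88 and 6.94 with COH29 against 7.33 and 7.50 without it in HCC1937+BRCA1, and 7.39 and 7.56 with COH29 against 8.72 and 8.78 without it in HCC1937, a difference of effects of 0.77 ± 0.14 (adjusted p = 0.0429). No kinesin passed this test.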

How the results depend on the processing

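Of 70 calls of single kinesins in the 5 comparisons 43 were kept in all 17 alternatives, 27 were lost in at least 1 and 0 reversed direction, and 10 further calls were gained. The count of mitotic kinesins that fell kept within 1.5 times of 11 in HCC1937+BRCA1 and of 10 in HCC1937 under every alternative. Cyclic loess kept 65 of the 70 calls and shifting each array to the same median kept 62. That shift moved the share of rises among all called genes to 54.4%, against 40.3% as deposited, for COH29 in HCC1937+BRCA1. With no moderation of the variances the kinesins that rose numbered 3 in place of 5 in HCC1937+BRCA1 and 2 in place of 4 in HCC1937, both of them transport kinesins, and 0 transport kinesins fell in HCC1937 in place of 2. The transport kinesins that fell in HCC1937 numbered 1 after the shift to the same median or with only the arrays compared. Leaving out 1 array at a time, the counts ranged as follows. Kinesins that rose numbered 3 to 6 in HCC1937+BRCA1 and 1 to 4 in HCC1937, transport kinesins in HCC1937 numbered 1 to 4 risen and 0 to 2 fallen, members higher and lower in HCC1937+BRCA1 without COH29 numbered 3 to 8 and 4 to 7, and members lower with COH29 numbered 6 to 9. The change of the gap between mitotic and transport kinesins was -0.72 in HCC1937+BRCA1 and -0.67 in HCC1937 by cyclic loess, and -0.70 in HCC1937 when probe sets of 1 gene were averaged. It ranged from -0.96 to -0.88 and from -0.84 to -0.71 when 1 array was left out. The difference of COH29 effects called 1 member, KIF20A, in place of 0, with genes of low level left out and with a trended, robust variance. The labels share replicate numbers 1 and 2 between groups. Deviations of same-numbered arrays correlated at -0.204 to 0.26, and the numbers were not taken to pair the samples. With 2 arrays per group these correlations cannot exclude a pairing. With the replicate block 67 of 70 calls were kept and the transport kinesins that fell in HCC1937 numbered 1 in place of 2. The crossed block, chosen after seeing the data, moved no kinesin count by over 1.5 times. Arrays give no depth, and weak probe sets near the background limit what could be seen of kinesins at low levels.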
